A study of Homo sapiens with 4 samples.

Results

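This account concerns the genes of Wnt signalling on expression arrays of MDA-MB-231, an established line of human breast cancer cells. The members are all probes whose symbol in the deposited signal table is a WNT, FZD, DKK, SFRP or DVL gene with a number, or 1 of 20 named pathway genes such as LRP5, AXIN2 and LGR4. The rule took 89 of the 47323 probes on the array. These belong to 60 of its 30925 named genes. RNA of cells transduced with a scrambled short hairpin (shCntrl, n = 2 arrays) was compared with RNA of cells transduced with 1 hairpin against TRPM7 (shT7#1, n = 2 arrays). TRPM7 is a divalent cation channel fused to a kinase, and the series title ties it to the mesenchymal state and to SOX4. Both groups share the cell line, its serum-containing medium and transduction with a hairpin. The labels number the arrays 1 and 2 in each group and do not say that these were separate cultures, so p-values rest on a spread that may be technical only.

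Wnt proteins are lipid-modified secreted ligands. They bind Frizzled receptors together with LRP5 or LRP6, which recruits Dishevelled and axin and spares beta-catenin from a destruction complex built on axin, APC and GSK3. Beta-catenin then joins TCF and LEF factors on target genes, among them AXIN2, whose product feeds back to restrain the pathway. Other Wnt ligands act through ROR and RYK receptors and the planar polarity branch without beta-catenin.

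MDA-MB-231 identity and array quality were checked first. Of 12 genes known from this line, such as VIM and AXL, 11 were above background on all 4 arrays. Of these 11, TGFBI was lower in shT7#1, with a log2 change of -1.35 (limma, adjusted p = 0.00498), and 10 were not called. The linear signal summed over the 12 genes was 93791 to 94774 in shCntrl and 79773 to 80934 in shT7#1. Of 14 luminal markers, 8 were also above background on all 4 arrays (GATA3, ERBB2, ERBB3, KRT8, KRT18, KRT19, EPCAM and XBP1), TFF3 was on 3, and ESR1, PGR, FOXA1, CDH1 and TFF1 were on none. None of the luminal markers was called, and their summed signal was 8125 to 8170 in shCntrl and 7022 to 7067 in shT7#1. Of the leukocyte markers, PTPRC, CD3E and ITGAM were above background on no array, and MS4A1 and LYZ on 1. CD14 was above it on all 4 arrays and was not called, with a log2 change of 0.10 (limma, adjusted p = 0.668). CSF1R was lower in shT7#1, with a log2 change of -1.52 (limma, adjusted p = 0.00739). The linear signal summed over all 8 leukocyte markers, at the highest probe of each, was 489 to 492 in shCntrl and 386 to 395 in shT7#1. Of 8 fibroblast markers, COL1A2 and PDGFRB were above background on all 4 arrays and LUM on 3. COL1A1 and COL3A1 were above it on 1 array, and DCN, PDGFRA and FAP on none. None of the fibroblast markers was called, and their summed signal was 410 to 455 in shCntrl and 306 to 342 in shT7#1. The part of these marker lists in the results below was not tested. The single TRPM7 probe was above background on no array, its detection p lying between 0.275 and 0.529, so the arrays gave no check of the knockdown. On the 4 arrays between 19492 and 20261 probes were above background. The numbering of the control arrays differed between the deposited tables. Over 7941 genes with a single probe, the difference of replicate 1 minus replicate 2 in the authors' processed table correlated with that in the signal table at 0.96 for shT7#1 but at -0.95 for shCntrl. The 2 shCntrl columns therefore carry each other's number in 1 of the tables, which changes no group. Replicate numbers below are those of the signal table.

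Of the 60 Wnt genes, 31 could be tested, meaning that a probe had a detection p under 0.05 on at least 2 of the 4 arrays. Each was represented by the passing probe with the highest mean signal. Of the 31 genes, 26 were above background on all 4 arrays at that probe, as were 85.0% of all genes tested. In shT7#1 the ligand gene WNT7B, the feedback gene AXIN2 and the receptor gene FZD6 were lower, and the receptor gene FZD4 and the Dickkopf family gene DKK3 were higher. These 5 genes make 16.1% of the 31 members tested, and over all 14731 genes tested the limma fit called 6.48% at the same adjusted p of 0.05. The 3 lower and 2 higher members stand beside 3.55% lower and 2.93% higher among all genes. The other 26 tested members did not pass. The median log2 change was -0.12 over the 31 members, against a median within 0.00 of no change over all genes. The median size of the change, without its sign, was 0.26 log2 units for the members and 0.20 for all genes. The arrays of the groups did not overlap for 21 of the 31 members, which is 67.7%, against 55.7% of all genes. For 15 members both shT7#1 arrays were lower (28.2% of all genes) and for 6 both were higher (27.5%). Within a bulk sample, fewer cells that express a gene and less RNA per cell cannot be told apart.

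Promoter windows are shown for FZD4, a member that rose, and for DKK1, a feedback inhibitor known as a target of beta-catenin, because they differ in base composition and in the motifs they hold. RefSeq promoter sequences (GRCh38.p14) were at hand for 43 of the 60 members and for 1 of the 5 that changed, FZD4. Each window is the 250 bases before the annotated start of transcription, read 5′ to 3′ on the gene's strand. Capitals mark TATAAA, the TATA sequence, and 2 forms of the core that TCF and LEF factors bind, CTTTGAA and also CTTTGTT.
FZD4: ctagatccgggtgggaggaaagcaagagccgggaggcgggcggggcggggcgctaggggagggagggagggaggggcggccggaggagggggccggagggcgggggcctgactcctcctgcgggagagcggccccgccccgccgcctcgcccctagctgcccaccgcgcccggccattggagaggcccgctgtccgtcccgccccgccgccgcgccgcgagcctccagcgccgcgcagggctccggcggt
DKK1: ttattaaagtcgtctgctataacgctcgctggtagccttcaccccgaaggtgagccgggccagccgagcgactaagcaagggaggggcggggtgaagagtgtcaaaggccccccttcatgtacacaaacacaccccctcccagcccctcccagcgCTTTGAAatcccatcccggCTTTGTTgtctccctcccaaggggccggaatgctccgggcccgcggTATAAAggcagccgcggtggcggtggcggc

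The FZD4 window (chr11:86955396-86955645, minus strand) was 80.8% G and C, above 97.4% of the 35116 RefSeq windows, and held 33 CG pairs. The DKK1 window (chr10:52314031-52314280, plus strand) was 62.8% G and C, with 18 CG pairs. Of the letters searched on both strands, AACAAAG, whose reverse complement is CTTTGTT and which SOX factors can also bind, was in 4.5% of all windows and in 3 of the 52 member windows, those of DKK1, TCF7 and TCF7L2. CTTTGAA was in 3.8% of all windows and, among the members, in that of DKK1. CTTTGAT was in 2.26% and CTTTGTA in 2.35% of all windows, and neither was in a member window. TATAAA was in 10.7% of all windows and in 4 member windows, those of DKK1, FZD8, TCF7 and WNT5B. In the DKK1 window the first base of CTTTGAA lay at -95 from the start site, that of CTTTGTT at -76 and that of TATAAA at -30.

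Among the ligands, WNT7B fell 2.76-fold in shT7#1. WNT7B encodes a ligand of the canonical branch with roles in lung and vascular development. Its normalised log2 signal was 7.09 and 7.19 on the shCntrl arrays, against 5.82 and 5.54 on the shT7#1 arrays. Both shT7#1 arrays lay more than a log2 unit under both shCntrl arrays, so the groups did not overlap. This log2 change of -1.46 ± 0.14 (SE) passed the threshold (limma, adjusted p = 0.00803). Before normalisation the shT7#1 signals were 146.1 and 148.4 units, against array medians of 117.6 and 125.4, with detection p-values of 0.00519 and 0.00260. The authors' deposited table lists WNT7B at 0.32-fold. A second WNT7B probe was above background on shCntrl replicate 1 alone, at 5.35 log2 units, and lay at 4.80 on the other shCntrl array and at 4.55 on both shT7#1 arrays. With 1 array left out, WNT7B stayed called without shT7#1 replicate 1 (adjusted p of 0.0398) and was not called without shCntrl replicate 1 (0.0539), shCntrl replicate 2 (0.0567) or shT7#1 replicate 2 (0.0547), at changes between -1.60 and -1.32.

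The other 4 tested ligand genes did not pass. WNT5B, which encodes a ligand of the non-canonical branch, had log2 signals of 8.15 and 8.09 in shCntrl, against 7.72 and 7.51 in shT7#1. The groups did not overlap, and the log2 change was -0.50 ± 0.13 (SE) (limma, adjusted p = 0.0793). WNT3, a canonical ligand gene, lay at 6.62 and 6.65 in shCntrl, against 6.54 and 6.62 in shT7#1. Its change of -0.06 had a 95% interval from -0.34 to 0.23 log2 units. WNT10B and WNT8A were near the detection floor, the lowest signal called above background, which lay between 4.92 and 4.98 log2 units on the 4 arrays. WNT10B ranged from 4.70 to 5.55 and WNT8A from 4.87 to 5.03 over the 4 arrays, and the groups overlapped for both.

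The remaining 14 ligand genes were not tested. WNT1, WNT2B and WNT6 were above background on 1 array. WNT2, WNT3A, WNT4, WNT5A, WNT7A, WNT8B, WNT9A, WNT9B, WNT10A, WNT11 and WNT16 were above background on none, at any of their probes. PORCN, the enzyme that attaches the lipid Wnt ligands need for secretion, was above background on all 4 arrays. Its signals were 6.79 and 6.59 in shCntrl, against 6.44 and 5.99 in shT7#1, all lower in shT7#1. The change of -0.47 ± 0.18 log2 units (SE) did not pass (limma, adjusted p = 0.179), and a second probe lay at -0.17.

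**Figure D1:**
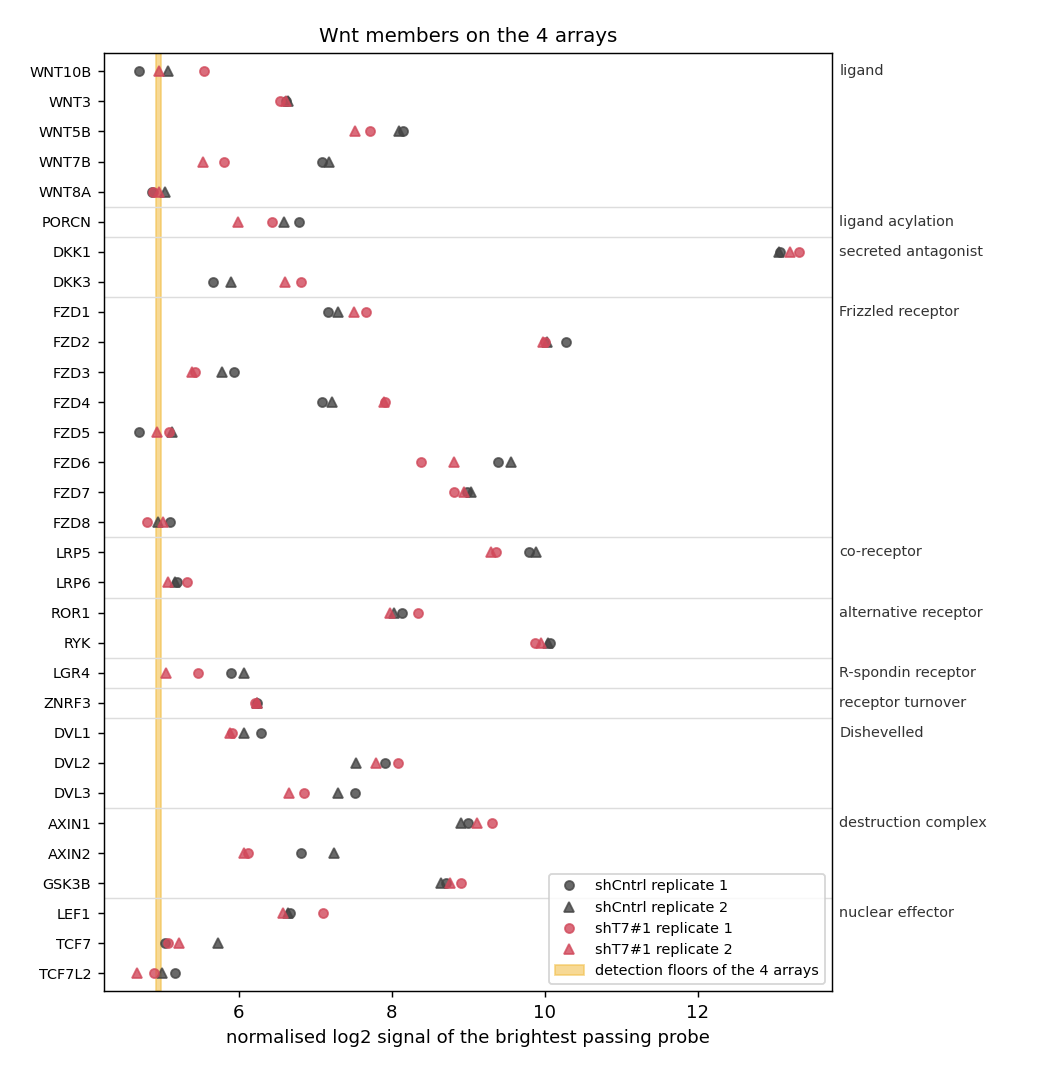
Normalised log2 signal (x axis) of the 31 tested Wnt genes (y axis, grouped by role) on the 4 arrays. Circles are replicate 1 and triangles replicate 2, dark grey for shCntrl and red for shT7#1, and the yellow band spans the detection floors of 4.92 to 4.98. For WNT7B, both red points (5.54 and 5.82) lie left of both dark grey points (7.09 and 7.19).

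Of the 10 Frizzled genes, 8 were tested, 1 rose and 1 fell. FZD4 rose 1.68-fold. FZD4 encodes a receptor for Wnt ligands and for norrin in retinal vessel growth. Its log2 signal was 7.09 and 7.22 in shCntrl, against 7.91 and 7.90 in shT7#1. The groups did not overlap, and the 2 shT7#1 arrays were nearly equal. This log2 change of 0.75 ± 0.12 (SE) passed the threshold (limma, adjusted p = 0.0265). The authors' deposited table lists FZD4 at 1.8-fold. Without any 1 of the 4 arrays FZD4 was not called, with adjusted p-values between 0.0933 and 0.140 at changes of 0.69 to 0.82. Under scaling of array medians in place of quantiles its change was 0.70 and the adjusted p was 0.0556.

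FZD6 fell 1.83-fold, at the edge of the threshold. FZD6 encodes a Frizzled that acts in planar cell polarity of skin and hair, as known from the mouse. Its log2 signal was 9.38 and 9.55 in shCntrl, against 8.39 and 8.81 in shT7#1. The groups did not overlap, although the 2 shT7#1 arrays lay further apart than the 2 shCntrl arrays. This log2 change of -0.87 ± 0.18 (SE) passed the threshold (limma, adjusted p = 0.0492), and the authors' deposited table lists it at 0.53-fold. Without any 1 array it was not called, with adjusted p-values between 0.0805 and 0.169. Nor was it called under median scaling (0.0564) or without a detection filter (0.0760).

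FZD3, a Frizzled with roles in axon guidance in the mouse, lay at 5.94 and 5.78 in shCntrl, against 5.43 and 5.40 in shT7#1. The groups did not overlap, and its change of -0.45 ± 0.12 log2 units (SE) had an adjusted p of 0.0878 by limma. FZD1 lay at 7.16 and 7.30 in shCntrl, against 7.66 and 7.50 in shT7#1, a change of 0.35 with an adjusted p of 0.158. A second FZD1 probe changed by 0.03. FZD2 and FZD7 were above background on all 4 arrays and did not pass. FZD2 changed by -0.17, with a 95% interval from -0.50 to 0.16. FZD7 changed by -0.12 at the tested probe and by 0.26 at another, so its probes differed in sign, and neither passed. FZD5 and FZD8 lay near the detection floor, with overlapping groups. FZD10 was above background on 1 array and FZD9 on none.

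The coreceptor gene LRP5 lay at 9.79 and 9.88 in shCntrl, against 9.36 and 9.30 in shT7#1. The groups did not overlap, and the spread within each was small beside the difference. The change of -0.51 ± 0.12 log2 units (SE) had an adjusted p of 0.0636 by limma, just outside the threshold, and a second probe with signals near background changed by -0.29. Its relative LRP6 lay between 5.07 and 5.32 on all 4 arrays, with overlapping groups and a change of 0.02. Of the receptors for the non-canonical branch, ROR1 changed by 0.08 and RYK by -0.14, with 95% intervals from -0.32 to 0.48 and from -0.43 to 0.14. ROR2 was above background on no array.

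LGR4 is a receptor for R-spondins, secreted proteins that protect Frizzled from removal. It lay at 5.90 and 6.07 in shCntrl, against 5.47 and 5.05 in shT7#1, without overlap. The change of -0.72 ± 0.17 log2 units (SE) did not pass (limma, adjusted p = 0.0713). Of 8 alternative settings that kept all 4 arrays, 3 called LGR4. These were probes above background on all 4 arrays, an offset of 50 and median scaling. LGR4 is at 0.42-fold in the authors' deposited table, and on the authors' values it was not called (limma, adjusted p = 0.156). ZNRF3, the membrane ubiquitin ligase that R-spondins restrain, lay between 6.22 and 6.24 on all 4 arrays and changed by -0.01 with a 95% interval from -0.28 to 0.27. LGR5 and the second ligase gene, RNF43, were above background on no array.

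**Figure D2:**
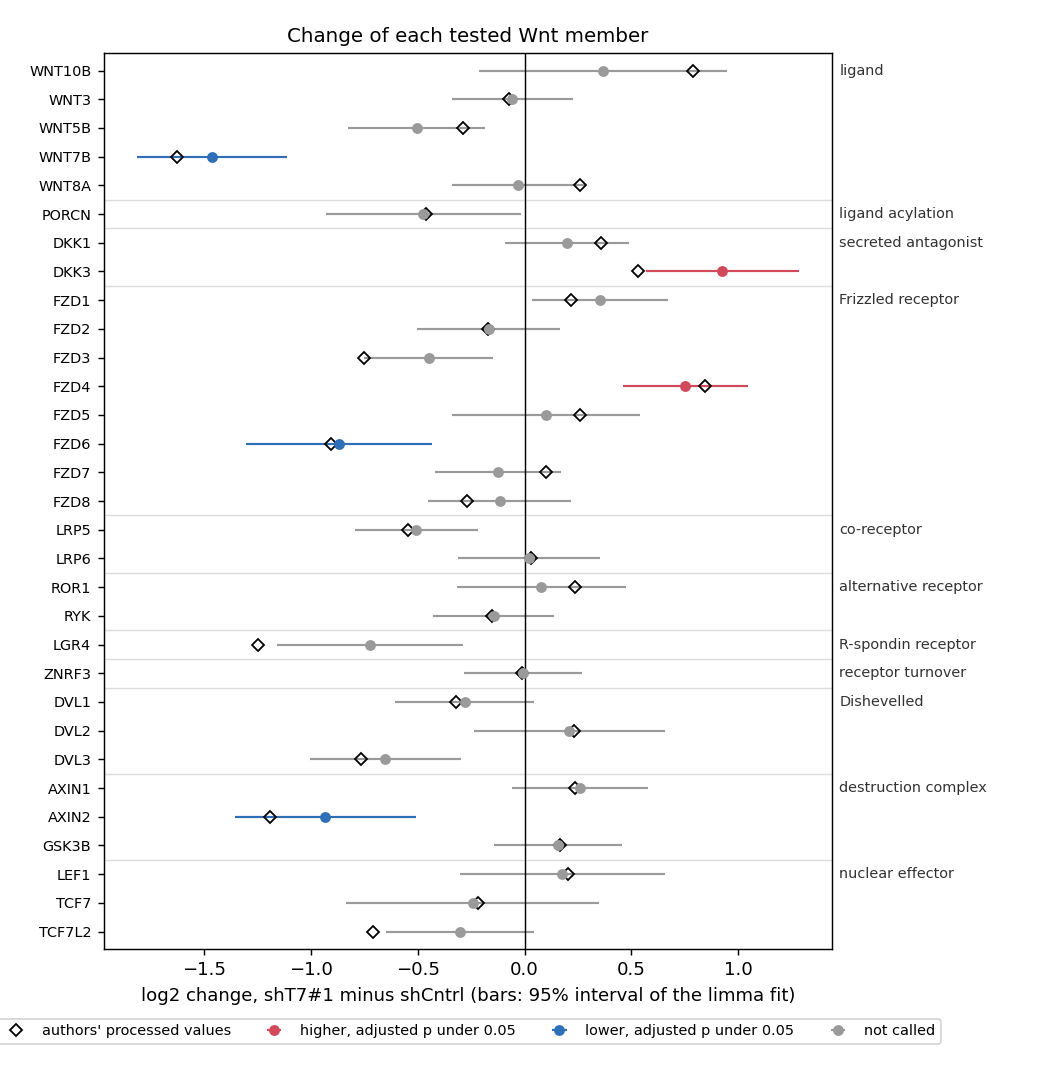
Log2 change of shT7#1 minus shCntrl (x axis) for the 31 tested Wnt genes (y axis, grouped by role), with bars for the 95% interval of the limma fit. Blue and red mark the 3 lower and 2 higher genes, grey the 26 not called, and open diamonds the authors' processed values. WNT7B lies furthest from 0, at -1.46.

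Of the secreted antagonists, DKK3 rose 1.90-fold and DKK1 did not pass. DKK3 encodes a divergent member of the Dickkopf family, and DKK1 encodes the member that blocks LRP5 and LRP6. The tested DKK3 probe gave 5.67 and 5.90 log2 units in shCntrl, against 6.81 and 6.60 in shT7#1, without overlap. This log2 change of 0.92 ± 0.14 (SE) passed the threshold (limma, adjusted p = 0.0265). A second DKK3 probe gave 5.19 and 5.83 in shCntrl, against 5.90 and 6.45 in shT7#1. There too all shT7#1 arrays were higher, but the arrays of each group lay well apart, and the change of 0.66 had an adjusted p of 0.210 over all probes, of which 5.4% were called. With the mean of both probes the adjusted p for DKK3 was 0.0593. Without any 1 array it lay between 0.0797 and 0.141, and the authors' deposited table, which holds 1 value per gene, lists DKK3 at 1.44-fold. Both other DKK3 probes were above background on no array.

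DKK1 gave 13.07 and 13.06 in shCntrl, against 13.32 and 13.20 in shT7#1, without overlap. The change of 0.20 ± 0.12 log2 units (SE) had an adjusted p of 0.348 by limma and a 95% interval from -0.09 to 0.49. A second DKK1 probe changed by 0.48. The other 6 antagonist genes were not tested. SFRP1, which encodes a secreted protein resembling the ligand-binding part of Frizzled, was above background on 1 array. DKK2, DKK4, SFRP2, SFRP4 and SFRP5 were above background on none.

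Inside the cell, AXIN2 fell 1.91-fold. Its log2 signal was 6.81 and 7.24 in shCntrl, against 6.12 and 6.07 in shT7#1. The groups did not overlap, and the 2 shCntrl arrays lay further apart than the 2 shT7#1 arrays. The fitted change of -0.93 ± 0.17 log2 units (SE) had an adjusted p of 0.0387 by limma, and the authors' deposited table lists AXIN2 at 0.44-fold. The array carried 1 AXIN2 probe. Without any 1 array AXIN2 was not called, with adjusted p-values between 0.0623 and 0.155, and its change was -0.72 without shCntrl replicate 2 and -1.15 without shCntrl replicate 1. AXIN1, the constitutive scaffold of the destruction complex, lay at 9.0 and 8.90 in shCntrl, against 9.31 and 9.12 in shT7#1. Its change of 0.26 ± 0.13 (SE) was opposite in sign to that of AXIN2 and did not pass, with an adjusted p of 0.271. The kinase gene GSK3B changed by 0.16, with a 95% interval from -0.14 to 0.46, and APC was above background on 1 array.

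Of the Dishevelled genes, whose products relay the signal from Frizzled, DVL3 came nearest to the threshold. It lay at 7.52 and 7.30 in shCntrl, against 6.86 and 6.66 in shT7#1, without overlap. The change of -0.65 ± 0.14 log2 units (SE) had an adjusted p of 0.0574 by limma, and the authors' deposited table lists it at 0.59-fold. DVL1 changed by -0.28 at the tested probe and by -0.35 and 0.04 at 2 others, so its probes differed in sign. DVL2 changed by 0.21 with overlapping groups. NKD1 and NKD2, feedback inhibitors that bind Dishevelled, were above background on no array.

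The nuclear effectors did not pass. At the tested probe LEF1 gave 6.68 and 6.65 in shCntrl, against 7.10 and 6.58 in shT7#1. There 1 shT7#1 array was high and the other was not. Its change was 0.18 (limma, adjusted p = 0.623). A second LEF1 probe gave 6.48 and 6.58 in shCntrl, against 6.62 and 6.76 in shT7#1, without overlap. That probe changed by 0.16 and did not pass either. TCF7 gave 5.04 and 5.74 in shCntrl, against 5.07 and 5.22 in shT7#1, with overlapping groups. TCF7L2, at 5.17 and 5.0 in shCntrl, was above background on neither shT7#1 array. Taken against the detection floor, the measured group means of TCF7L2 lay at least 1.09-fold apart. This bound leaves out the spread between arrays, so it does not show that the groups differ. TCF7L2 was not called (limma, adjusted p = 0.246). TCF7L1 was above background on no array.

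At an unadjusted p of 0.05, 12 of the 31 members passed, where 25.9% of all genes passed. Of the 12, 9 were lower and 3 higher, beside 13.5% and 12.4% of all genes. Beyond the 5 called genes these were WNT5B, PORCN, LRP5, LGR4, DVL3, FZD3 and FZD1. Of these 7, FZD1 alone was higher. Within families the signs were mixed. Of the 8 Frizzled genes 5 had a negative and 3 a positive change. Of the 5 ligand genes 4 had a negative and 1 a positive change. Over all 14731 genes tested, 7370 had a negative change. The signs of FZD5, FZD7 and WNT8A turned under some of the alternative settings given below.

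**Figure D3:**
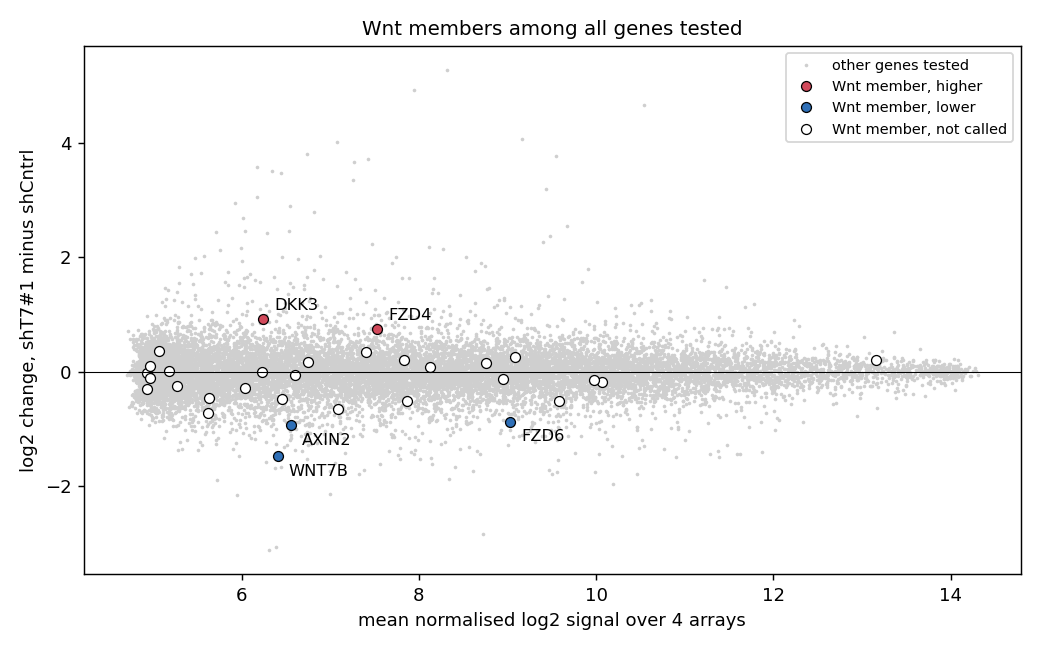
Log2 change of shT7#1 minus shCntrl (y axis) against the mean normalised log2 signal over 4 arrays (x axis) for the 14731 genes tested, in pale grey. The 31 Wnt members are outlined points, filled blue where lower, red where higher and white where not called. The outlined point furthest right is DKK1, at a mean of 13.16 and a change of 0.20.

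Another 114 genes of the pathway, taken from 5 lists by role, were set beside the members. Of these 74 were tested, 1 rose, 9 fell and 64 were not called, so 13.5% were called, beside the 6.48% of all genes (2.93% higher and 3.55% lower). By list the called share ran from 6.25%, in the turnover and transcription lists, to 23.5% in the planar polarity list. With 1 array left out almost none of the 74 was called, and calls over all genes fell as well. A group left with 1 array has no spread of its own. The median log2 change of the 74 was -0.08.

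Of 8 tested genes of extracellular control, 0 rose and 1 fell. SDC1, a heparan sulphate proteoglycan needed for Wnt1-driven mammary tumours in the mouse, changed by -0.68 ± 0.14 log2 units (SE) (limma, adjusted p = 0.0490). A second SDC1 probe, above background on 2 arrays, changed by -0.05. WLS, the carrier that escorts Wnt ligands to the cell surface, lay at -0.36 with an adjusted p of 0.141. The uncalled genes of the list with the largest changes were higher in shT7#1. KREMEN2, a receptor for Dickkopf proteins, was, at the tested probe, above background on both shT7#1 arrays, at 5.84 and 5.34 log2 units, and on neither shCntrl array. It thus passed the detection filter through shT7#1 alone, and it was not called (limma, adjusted p = 0.0687). The value of 1 other KREMEN2 probe that passed the filter is not given here. TRABD2A, a membrane protease that cleaves Wnt ligands, changed by 0.80 with an adjusted p of 0.0847. It was above background on 3 arrays and lay at 4.68 log2 units, under the detection floor, on shCntrl replicate 2.

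Of 16 tested genes of beta-catenin turnover, 0 rose and 1 fell. CXXC5, which binds Dishevelled and dampens the pathway, changed by -1.04 ± 0.14 log2 units (SE) (limma, adjusted p = 0.0189). Its second probe changed by -0.82. CTNNB1, the beta-catenin gene, lay at -0.28 with an adjusted p of 0.189, and FRAT2, which binds GSK3, at 0.30 with an adjusted p of 0.262. Of 16 tested genes of beta-catenin transcription, 0 rose and 1 fell. This was EP300, an acetyltransferase and coactivator of many factors, at -0.56 with an adjusted p of 0.0494. TLE1, a corepressor of TCF factors, lay at 0.60 with an adjusted p of 0.0515, and TBL1XR1, a subunit of corepressor complexes, at -0.74 with an adjusted p of 0.0598.

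Of 17 tested genes of planar polarity and other branches, 1 rose and 3 fell. PRICKLE1 and PRICKLE2, cytoplasmic proteins of planar polarity, changed by -0.70 and -0.69 log2 units, with limma adjusted p-values of 0.0379 and 0.0326. PRKCA, a protein kinase C also used by many other receptors, changed by -0.96. The gene that rose was NLK, a kinase that phosphorylates TCF and LEF factors, at 0.82 ± 0.17 (SE) with an adjusted p of 0.0494. PTK7, a receptor of the planar polarity branch, lay at 0.71 with an adjusted p of 0.0530.

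Of 17 tested genes listed as beta-catenin targets, 0 rose and 3 fell. BMP4, a ligand of the BMP pathway, changed by -0.71 ± 0.12 log2 units (SE), and its 2 other probes by -1.08 and -0.46. TNFRSF19, a TNF receptor family member, changed by -0.62 and SNAI2, a zinc finger repressor, by -0.64. The largest change of the list was that of VEGFA, a growth factor for blood vessels, at -1.04 with an adjusted p of 0.0634, which did not pass. Its groups did not overlap, nor did those of PLAUR (0.48), BIRC5 (-0.44) and EPHB2 (-0.43), also not called. In all, the groups did not overlap for 10 of the 17 targets, MYC and CCND1 among them, beside 55.7% of all genes. MYC lay at 0.15 and CCND1, which encodes cyclin D1, at -0.03 log2 units. Neither MYC nor CCND1 passed, with limma adjusted p-values of 0.488 and 0.916, and CD44 lay at 0.12 with an adjusted p of 0.646. These genes have many inputs besides beta-catenin.

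**Figure D4:**
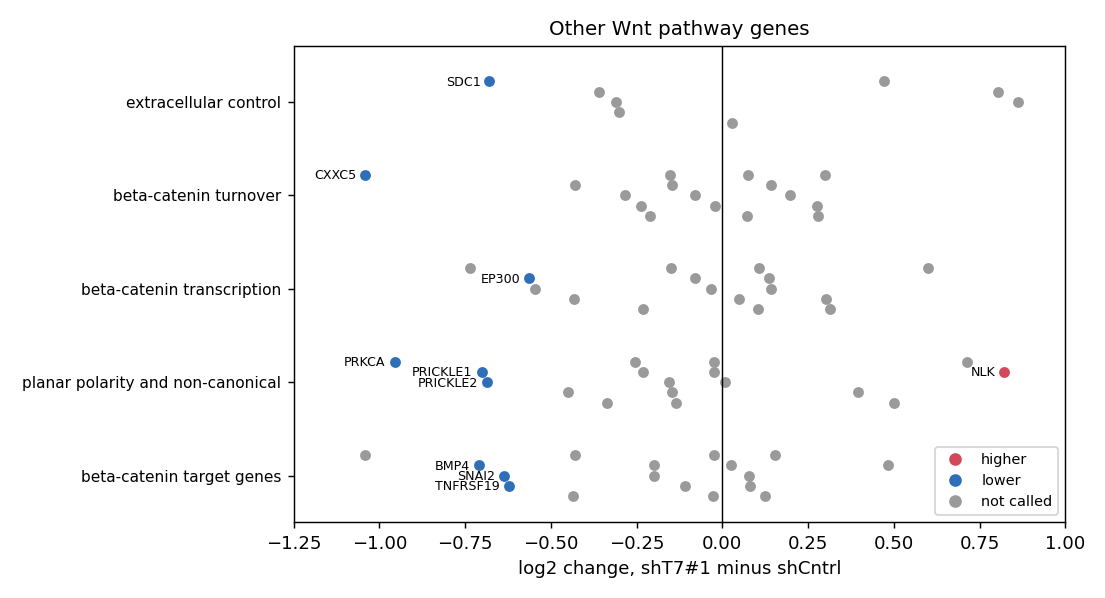
Log2 change of shT7#1 minus shCntrl (x axis) for the 74 tested genes of 5 other Wnt pathway lists (y axis), 1 point per gene, spread vertically for legibility. The 9 lower genes are blue, the 1 higher gene, NLK at 0.82, is red, and genes not called are grey.

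Over the 12 alternatives the calls of members changed more often than their signs did, as the plot of changes under each alternative shows. Of the 12, 8 kept all 4 arrays and 4 left out 1 array, where a group of 1 array has no spread of its own. WNT7B kept its sign in all 12. Of the 8 on all arrays it was called in 7, AXIN2, DKK3 and FZD4 in 6 and FZD6 in 5. DVL3 was called in 5 of these 8, and LGR4, LRP5 and WNT5B in 3. On the authors' processed values no member was called by limma, while 2 of the 31 were higher and 7 lower at an unadjusted p of 0.05. Of all 14083 genes tested on those values, 1449 were higher and 1588 lower at that p. There the change of WNT7B was -1.63 with an adjusted p of 0.0728.

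**Figure D5:**
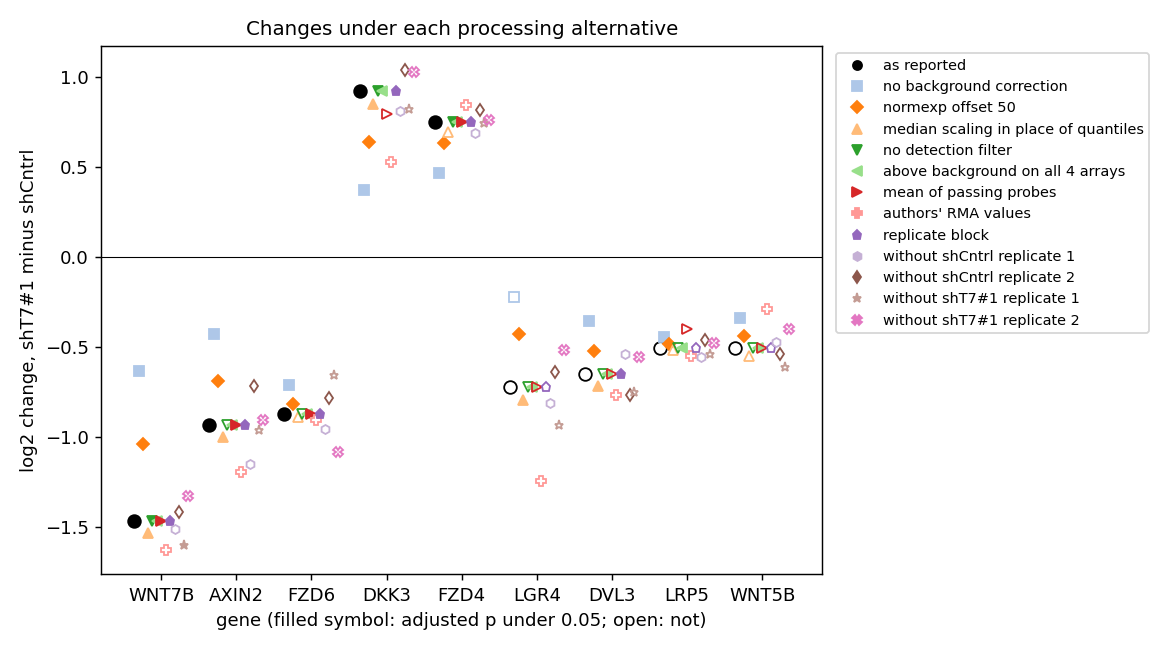
Log2 change of shT7#1 minus shCntrl (y axis) for 9 Wnt genes (x axis) under the reported processing (black circles) and 12 alternatives (coloured symbols). Filled symbols mark an adjusted p under 0.05. All symbols of a gene lie on 1 side of 0, and WNT7B spans -1.63 to -0.63.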

How the data were processed

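RNA of 4 samples was hybridised to Illumina HumanHT-12 v4 bead arrays. The deposited table of unnormalised values held 1 signal intensity per probe and array and a detection p-value, deposited beside each intensity. The submitters' processing notes name GenomeStudio 2011.1. The authors' processed table held log2 values, 1 per symbol, made per the file headers by RMA in ArrayStar. The authors' fold ratio came, per the file headers, from group means, with genes dropped where both groups lay below 2.5 on the log2 scale. How probes of a gene were joined is not given in the sources used here.

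Here intensities were background-corrected with limma 3.58.1 in R 4.3.3 (normexp from detection p-values, offset 16), quantile-normalised and put on the log2 scale. Of 47323 probes, 20366 had a detection p under 0.05 on at least 2 arrays, and 19326 of these carried a symbol. A gene was its passing probe with the highest mean. Symbols other than the members' were updated through RefSeq names (GRCh38.p14), 3297 in all, and 23 symbols turned into dates were left out. The 14731 genes were fitted with lmFit and eBayes with group as the only term, two-sided, with Benjamini-Hochberg adjustment over all of them and a threshold of 0.05. Each gene had 2 residual degrees of freedom, to which the prior added 3.65. Errors are standard errors of that fit, and intervals are at 95%. The fit was tested on simulated data. For a member above background on neither array of a group, the size of the change is given only as a bound against the detection floor. No bound was made for genes of the other lists, such as KREMEN2. The number of arrays, 4, limits the precision.

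The rule for named genes took every called member, the member with the highest mean signal in each role, the 6 members not called with the largest change, members above background in 1 group only, members whose probes differ in sign, members above background on no array, and up to 4 called genes of each other list. The remaining members are named to account for all of them. The members and lists were chosen with earlier results of these data known. Values of further genes in those lists (WLS, KREMEN2, TRABD2A, CTNNB1, FRAT2, TLE1, TBL1XR1, PTK7, VEGFA, PLAUR, BIRC5, EPHB2, MYC, CCND1 and CD44), 3 of the 5 motifs (CTTTGAA first, then CTTTGTA, with TATAAA last) and the promoter of DKK1 were chosen after the values were seen. The promoters shown cover only sequence before the start site. The level of 1 leukocyte marker is not reported here.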

Additional observations from a re-analysis of the deposited data

How the results depend on the processing

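Of the 31 tested members, the sign of the 5 called genes held under all 12 alternatives. Signs turned only for members not called in either setting: FZD7 (0.069 with the mean of passing probes, 0.10 on the authors' values), LRP6 (-0.025 with median scaling), WNT8A (0.26 on the authors' values) and, with 1 array left out, FZD5 (-0.12 to 0.32), LEF1 (-0.086 to 0.44), LRP6 (-0.11 to 0.14), ROR1 (-0.10 to 0.26), TCF7 (-0.59 to 0.10), WNT8A (-0.11 to 0.054) and ZNRF3 (-0.020 to 0.0046). Without background correction the changes of WNT7B, AXIN2, DKK3 and FZD4 shrank to -0.63, -0.43, 0.37 and 0.47. This alternative leaves the background in both groups.

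Counts of higher and lower members were 2 and 3 as reported, 2 and 6 without background correction and 2 and 7 with an offset of 50. With all 4 arrays above background (26 members tested) they were 2 and 7, and with median scaling 1 and 4. Without a detection filter (60 members tested) they were 2 and 1. Member counts were 1 and 3 with the mean of passing probes and 0 and 0 on the authors' values. With 1 array left out almost no member was called in either direction, and over all genes most calls were lost too. The median log2 change of the members then lay between -0.15 and -0.04. Over all genes 432 were higher and 523 lower as reported, 1173 and 1258 without background correction, 965 and 1086 with an offset of 50, 694 and 817 with all 4 arrays above background, 111 and 97 on the authors' values, and 69 to 86 and 38 to 53 with 1 array left out. For the other pathway genes the counts were 1 and 9 as reported, 5 and 13 without background correction, 6 and 12 with an offset of 50, 4 and 11 with all 4 arrays above background, 2 and 8 with the mean of passing probes, 0 and 4 without a detection filter, 0 and 0 on the authors' values (6 and 14 at an unadjusted p of 0.05), and 0 and 0 to 1 with 1 array left out. A group left with 1 array is assumed to vary like the other. Over all genes 303 were higher and 480 lower with median scaling, and 463 and 530 with the mean of passing probes. On the authors' values 1449 and 1588 of 14083 genes were higher and lower at an unadjusted p of 0.05. Without a detection filter 306 and 358 of 30925 genes were higher and lower. With all 4 arrays above background 12522 genes were tested. Some settings also changed the number of arrays or of genes tested, and the cause of the differences in counts was not tested.

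The replicate numbers do not show that arrays were paired. Deviations of same-numbered arrays correlated at 0.12 across genes. With the replicate block 2 members were higher and 4 lower, DVL3 being added, over all genes 553 and 667, and for the other pathway genes 4 and 9. With the shCntrl numbers crossed, a setting chosen after seeing the data, the block gave 2 and 4 members, 360 and 420 genes in all, and 2 and 5 other pathway genes. Its members differed: LGR4 was called (adjusted p 0.0481) and DVL3 was not (0.0776), so which of them the block adds depends on the numbering of the shCntrl arrays.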
